A study of Homo sapiens with 17 samples.

Results

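The genes described here are 10 genes for calcium-dependent membrane binding and the cell cortex: the annexins ANXA1, ANXA2 and ANXA5, the S100 genes S100A4, S100A6, S100A10 and S100A11, the scaffold gene AHNAK, the actin-binding gene TAGLN2 and the intermediate filament gene VIM. They are 10 of 57638 annotated genes with transcripts in the files, of which 27043 had at least 1 read. They were chosen by their level per library across the plasmid labels and across labels with and without a number prefix. Their values in every comparison below are therefore a description with no test, and no call of a member supports anything. All 10 were tested genes after the filter on low counts in each of the 4 comparisons.

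The series holds 17 RNA libraries from K562, a line from human chronic myeloid leukaemia that has erythroid features. Per the labels, every library came from K562 electroporated with CRISPR plasmids, then given an antisense oligonucleotide (ASO), and processed on day 6. The design text says that the plasmids were meant to activate the gene a label names. The ASO and the guides are not named, and no library without the ASO is labelled. The series title links GOLGA8 genes to ASO uptake and activity.

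The libraries fall into groups by label. The 4 prefixed labels are 20-ARSF, 21-CTPS2, 22-LAPTM4B and 23-GOLGA8N, with 1 library each, against 13 unprefixed libraries. The GOLGA8N arm holds GOLGA8N 1, GOLGA8N 2 and 23-GOLGA8N. The LAPTM4B arm holds LAPTM4B 1, LAPTM4B 2 and 22-LAPTM4B. The control arm holds the libraries labelled Neg, GFP and RFP, none of which names a human gene. ADORA2A, COL6A6, TRPC5OS, TTR, UBE2V1 and E7 have 1 unprefixed library each. What the prefixes, the numbers 1 and 2, Neg and E7 stand for is not given in the labels. Nor do they say that libraries came from separate cultures, so a p-value here reflects variation from library to library that may be technical in origin.

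Levels are CPM, estimated reads of a gene per 1000000 reads in genes. Reads in genes numbered 549962 in GFP and 2174638 to 4090195 in the other libraries, so 3 reads correspond to 5.45 CPM in GFP and 0.733 CPM in 20-ARSF, the deepest; GFP stands apart by depth. Of the 9 human genes named by labels, 2 (TTR and UBE2V1) were higher in their own library than in every other library. TTR was at 11.7 CPM, against at most 1.15 CPM elsewhere, but UBE2V1 was at 129 CPM, against up to 124 CPM elsewhere. GOLGA8N was at 0 to 0.318 CPM in its own libraries, against 0 to 0.249 CPM in the others, though reads can be divided between near-identical GOLGA8 copies. LAPTM4B was at 166 to 222 CPM in its own libraries, against 156 to 306 CPM in the others. The labels are used here as names of plasmids. The labels call the cells lymphoblasts, yet the lymphoid markers CD3E and MS4A1 had 0 reads in all 17 libraries, while CD3D had 33.2 to 119 CPM. The erythroid gene HBG2 had 2236 to 4777 CPM.

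Annexins are proteins that bind acidic membrane lipids when calcium rises, and they act in membrane repair, endocytosis and exocytosis. S100 proteins are small calcium sensors, and several of them bind the ends of annexins: S100A10 pairs with ANXA2 and S100A11 with ANXA1. AHNAK is a very large scaffold protein that binds the ANXA2 and S100A10 complex under the plasma membrane. TAGLN2 binds and stabilises actin filaments at the cell cortex, and VIM forms the vimentin intermediate filaments.

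Of the 10 genes, 5 lie on chromosome 1 of GRCh38, and all 5 of these lie on the minus strand (GENCODE 29). S100A10 spans chr1:151982915-151994390, S100A11 chr1:152032506-152047907, S100A6 chr1:153534599-153536244, S100A4 chr1:153543613-153550136 and TAGLN2 chr1:159918107-159925732. AHNAK lies on the minus strand at chr11:62433542-62556235. ANXA1 is on the plus strand at chr9:73151757-73170393, ANXA2 on the minus strand at chr15:60347134-60402883, ANXA5 on the minus strand at chr4:121667955-121697113 and VIM on the plus strand at chr10:17228259-17237593.

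Promoter windows are shown for AHNAK, S100A10, TAGLN2 and ANXA1, the 4 members described most fully below. The sequences are from RefSeq (GRCh38.p14), are written 5′ to 3′ on the gene's own strand, and run from upstream of RefSeq's start to just past it. The windows are chr11:62545777-62546076 on the minus strand for AHNAK, chr1:151993810-151994109 on the minus strand for S100A10, chr1:159925458-159925757 on the minus strand for TAGLN2 and chr9:73151615-73151914 on the plus strand for ANXA1. Capitals mark the AP-1 motif TGANTCA, the GC box GGGCGG and the TATA box TATAAA, each searched on both strands. A GC box on the other strand reads CCGCCC here.
AHNAK: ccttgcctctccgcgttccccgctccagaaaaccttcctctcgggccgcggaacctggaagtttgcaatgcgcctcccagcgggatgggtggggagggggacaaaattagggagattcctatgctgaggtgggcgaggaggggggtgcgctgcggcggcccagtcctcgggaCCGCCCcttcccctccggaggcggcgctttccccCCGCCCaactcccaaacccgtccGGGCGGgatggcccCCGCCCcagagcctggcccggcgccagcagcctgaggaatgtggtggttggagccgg
S100A10: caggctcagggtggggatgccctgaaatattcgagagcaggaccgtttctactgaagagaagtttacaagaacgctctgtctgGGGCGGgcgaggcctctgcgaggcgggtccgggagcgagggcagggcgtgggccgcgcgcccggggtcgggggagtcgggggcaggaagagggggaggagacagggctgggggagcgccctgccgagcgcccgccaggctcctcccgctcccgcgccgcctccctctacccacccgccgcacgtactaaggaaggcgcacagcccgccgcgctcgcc
TAGLN2: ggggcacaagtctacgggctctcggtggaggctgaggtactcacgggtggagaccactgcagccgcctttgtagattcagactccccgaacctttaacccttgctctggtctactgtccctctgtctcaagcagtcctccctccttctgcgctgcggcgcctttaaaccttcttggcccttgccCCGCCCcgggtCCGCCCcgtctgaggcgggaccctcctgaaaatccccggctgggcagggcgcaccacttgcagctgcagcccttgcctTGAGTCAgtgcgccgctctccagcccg
ANXA1: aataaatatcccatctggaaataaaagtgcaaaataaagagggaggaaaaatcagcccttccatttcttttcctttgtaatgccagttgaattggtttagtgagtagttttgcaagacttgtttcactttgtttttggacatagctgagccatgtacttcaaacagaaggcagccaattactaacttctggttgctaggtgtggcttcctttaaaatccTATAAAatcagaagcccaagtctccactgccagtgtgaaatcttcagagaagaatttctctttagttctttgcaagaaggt

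All 10 members had a RefSeq window. The GC box was in 8 of them, against 44.6% of all 27305 windows of the same length. In the windows shown, AHNAK has 4 GC boxes, S100A10 has 1 and TAGLN2 has 2, with no overlap between them or with another motif searched. The AP-1 motif was in ANXA2 and TAGLN2, against 7.76% of all windows, and in TAGLN2 it lies 23 to 29 bases past the start. The TATA box was in ANXA1, ANXA2 and S100A4, against 12.0% of all windows. The CArG box (1.29% of all windows), the E-box CACGTG (7.43%) and the GATA motif AGATAA (10.5%) were in none of the 10. The GC content was 70.0% for AHNAK, 71.7% for S100A10, 64.3% for TAGLN2 and 37.7% for ANXA1, against a median of 58.3% over all windows. A match is a description of these letters, and no match says only that they are not in this window.

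Levels are set side by side across genes as deposited TPM, which divides by transcript length, summed over transcripts. These libraries read the 3′ ends of transcripts, so the division lowers long transcripts such as AHNAK (main transcript 18761 bases) relative to short ones, and the order is one of TPM values, not of transcript numbers. TAGLN2 had the highest TPM, 520 ± 60.5 (SD, n = 17), followed by S100A11 at 281 ± 43.4, VIM at 124 ± 31.1 and ANXA2 at 65.8 ± 10.2. These 4 held the same order in each of the 17 libraries. ANXA1 followed at 30.6 ± 8.84 TPM. S100A10 (18.0 ± 6.72 TPM) and AHNAK (13.9 ± 5.63 TPM) were closer to each other than the larger of their SDs. So were S100A4 (7.20 ± 4.12 TPM) and ANXA5 (6.92 ± 2.60 TPM), and ANXA5 and S100A6 (5.69 ± 3.86 TPM).

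Summed over the libraries, most reads of each gene were assigned to 1 protein-coding transcript. S100A6-201 took 100% of S100A6 reads and VIM-201 99.1% of VIM reads, while TAGLN2-202 took 63.4% of TAGLN2 reads. AHNAK-202, the long transcript, took 90.4% of AHNAK reads and AHNAK-205, of 701 bases, took 8.29%. Some libraries departed from these shares. The main transcript took 18.3% of TAGLN2 reads in Neg, 44.6% in 22-LAPTM4B and 48.8% in LAPTM4B 1. Of ANXA1 reads it took 26.1% in GFP, 27.5% in LAPTM4B 2, 28% in RFP and 28% in COL6A6. Of S100A10 reads it took 29.4% in 22-LAPTM4B. The lowest shares for ANXA5 (26.7% of 24 reads, in GFP) and S100A4 (0% of 4 reads, in COL6A6) rest on few reads. The annotated pseudogenes ANXA2P1, ANXA2P2, ANXA2P3, S100A11P1, S100A11P2 and TAGLN2P1 had 0 reads in all libraries. VIM-AS1, antisense to VIM, reached at most 6.54 CPM, and with the strand setting not given, reads of VIM and VIM-AS1 cannot be told apart.

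The first comparison sets the 4 prefixed libraries against the 13 unprefixed ones. AHNAK was at 231, 247, 246 and 269 CPM in 20-ARSF, 21-CTPS2, 22-LAPTM4B and 23-GOLGA8N, against a lowest of 102, a median of 143 and a highest of 239 CPM in unprefixed libraries. The highest unprefixed library was E7, and the next was TTR at 187 CPM, so in CPM the groups overlap through E7 alone. In deposited TPM the prefixed libraries were at 16.5 to 21.8. There RFP (21.4) and GFP (16.7) lay within that range, GOLGA8N 1 (22.4) above it and E7 (13.6) below it. The log2 ratio of mean TPM, with a pseudocount of 1, was 0.62. The means were 248 ± 16 CPM in prefixed and 149 ± 37.9 CPM in unprefixed libraries (SD, n = 4 and 13), a log2 fold change of 0.75 ± 0.153 (SE) in the edgeR fit.

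S100A10, the ANXA2 partner that AHNAK also binds, was at 25.9, 38.1, 28.1 and 47.4 CPM in the same 4 prefixed libraries, in that order. The unprefixed libraries had a lowest of 8.03, a median of 18.3 and a highest of 31.7 CPM. GOLGA8N 1 (31.7 CPM), GOLGA8N 2 (29.8 CPM) and E7 (29.6 CPM) were the 3 unprefixed libraries at or above the lowest prefixed one. The log2 fold change was 0.79 ± 0.271 (SE). Reads were few: 97 to 106 per prefixed library and 13 to 119 per unprefixed library.

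S100A11, which binds ANXA1, was at 431, 346, 349 and 400 CPM in 20-ARSF, 21-CTPS2, 22-LAPTM4B and 23-GOLGA8N, against a lowest of 230, a median of 280 and a highest of 353 CPM in unprefixed libraries. LAPTM4B 1 was the only unprefixed library to reach the lowest prefixed one. The log2 fold change was 0.40 ± 0.126 (SE). Its partner ANXA1 was at 94.6, 153, 133 and 147 CPM in prefixed libraries, against a lowest of 57.8, a median of 119 and a highest of 135 CPM in unprefixed libraries. Here 20-ARSF stood below 8 unprefixed libraries, and the log2 fold change was 0.38 ± 0.199 (SE).

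The other members overlapped widely between prefixed and unprefixed libraries. TAGLN2 was at 2524, 2255, 2418 and 2611 CPM in prefixed libraries, against a lowest of 1812, a median of 2238 and a highest of 2934 CPM (GOLGA8N 1) in unprefixed libraries, a log2 fold change of 0.19 ± 0.113 (SE). ANXA2 was at 261, 307, 237 and 275 CPM in prefixed libraries, against a lowest of 156, a median of 240 and a highest of 327 CPM in unprefixed libraries, a log2 fold change of 0.18 ± 0.134 (SE). VIM was at 627, 928, 632 and 596 CPM in prefixed libraries, against a lowest of 354, a median of 608 and a highest of 881 CPM in unprefixed libraries, a log2 fold change of 0.20 ± 0.174 (SE). In VIM the prefixed group is high mainly in 21-CTPS2.

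ANXA5, which binds phosphatidylserine on exposed membranes, was at 35.2, 22.5, 26.9 and 24.4 CPM in prefixed libraries, against 18.7 to 43.9 CPM (median 28.5) in unprefixed libraries, a log2 fold change of -0.05 ± 0.239 (SE). S100A4, which binds non-muscle myosin, was at 12.5, 2.18, 4.92 and 10.1 CPM in prefixed libraries, against 0.435 to 11.5 CPM (median 7.34) in unprefixed libraries. S100A6 was at 3.42, 2.54, 1.74 and 3.22 CPM in prefixed libraries, against 2.00 to 12.7 CPM (median 3.44) in unprefixed libraries, where the highest, GFP, rests on 7 reads. With 1 to 51 reads a library, S100A4 and S100A6 have levels in which a difference between these groups was not detectable at this depth. Their SEs were 0.558 and 0.704 on the log2 scale.

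**Figure D1:**
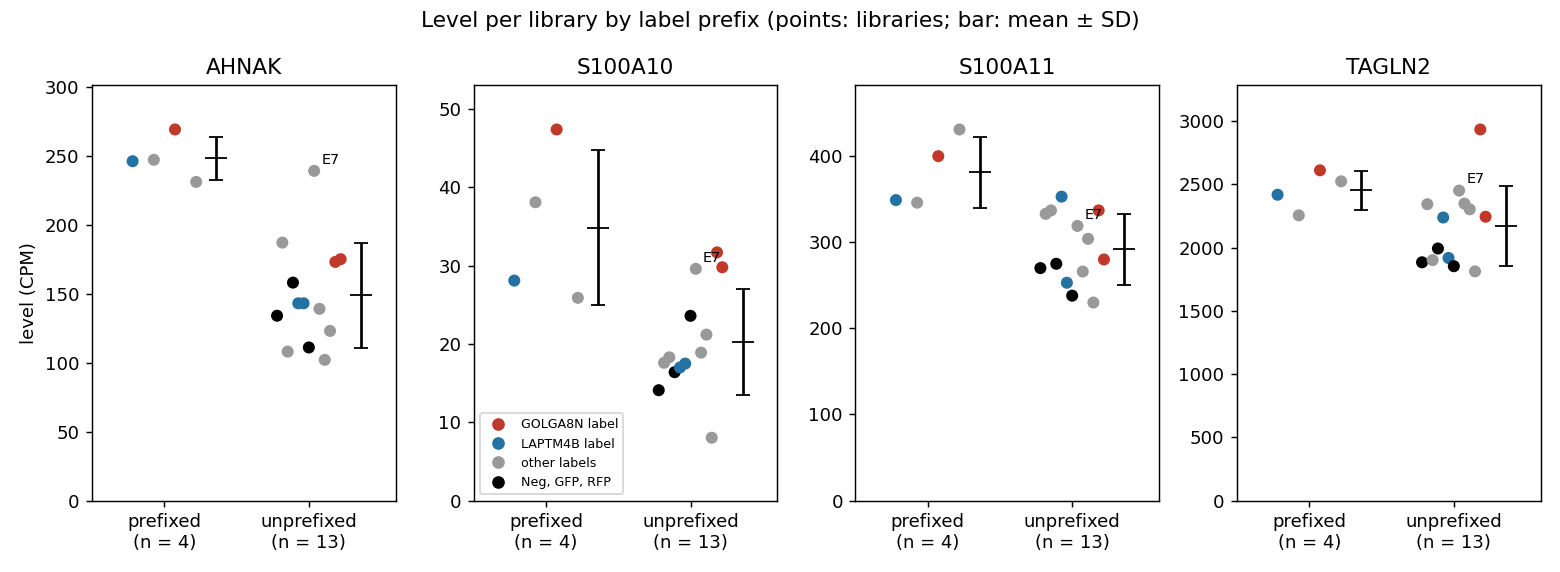
CPM of AHNAK, S100A10, S100A11 and TAGLN2 per library (points), for 4 prefixed libraries on the left and 13 unprefixed libraries on the right of each panel, with mean and SD beside them and colours for the label. AHNAK in prefixed libraries lies at 231 to 269 CPM, and E7 (239 CPM) is the unprefixed library within that range, while TAGLN2 overlaps.

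Over all 12319 genes tested, 35 (0.284%) had an adjusted p under 0.05, of which 29 (0.235%) were higher and 6 lower in prefixed libraries. AHNAK was 1 of these 35 and the only member among them, which the choice of members by this split makes uninformative. No member had groups without overlap, against 0.357% of all genes tested. The members' median log2 fold change was 0.19, against -0.021 over all genes tested, and 8 of 10 were above 0, against 47.8% of all genes. AHNAK's adjusted p in edgeR was no longer under 0.05 without 21-CTPS2 (log2 fold change 0.77, adjusted p 0.0687), without 22-LAPTM4B (0.74, adjusted p 0.13) or without 23-GOLGA8N (0.70, adjusted p 0.127). Without E7, a library left out after the values were seen, AHNAK's log2 fold change was 0.83 and S100A10's was 0.85.

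Within each of the 2 labels that have both kinds of library, the prefixed library can be set beside the unprefixed ones with the same gene named. AHNAK was at 269 CPM in 23-GOLGA8N, against 173 and 175 CPM in GOLGA8N 1 and 2, and at 246 CPM in 22-LAPTM4B, against 143 and 143 CPM in LAPTM4B 1 and 2. S100A10 was at 47.4 CPM in 23-GOLGA8N, against 31.7 and 29.8 CPM, and at 28.1 CPM in 22-LAPTM4B, against 17 and 17.5 CPM. ANXA1 was at 147 CPM in 23-GOLGA8N, against 64.2 and 129 CPM, and at 133 CPM in 22-LAPTM4B, against 57.8 and 113 CPM. These 3 were higher in the prefixed library under both labels, and S100A6 was lower under both, at a few reads. The share of all genes tested that did either under both labels was not computed, so this is a description only. Under GOLGA8N the prefixed library was highest for 4 members, lowest for 2 and between for 4, while over all 12319 genes tested it was highest for 35.8% and lowest for 33.4%. Under LAPTM4B it was highest for 5 members, lowest for 3 and between for 2, while over all genes tested it was highest for 31.3% and lowest for 36.3%.

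The cell type markers were listed with earlier results of these data known, so their calls are a description. Of them, 2 were called for the prefix, HBE1 and CD68, where 0.284% of all genes tested were called. Of 9 K562 erythroid markers, HBE1, the embryonic beta-like globin, rose in prefixed libraries (813 ± 188 CPM, against 459 ± 87.0 CPM in unprefixed; log2 fold change 0.83 ± 0.157, adjusted p 0.0191 in edgeR), and 4 of 9 had a log2 fold change above 0. The erythroid list summed to 5727 to 8518 CPM in prefixed and 4829 to 9343 CPM in unprefixed libraries. Of 5 monocyte markers, 2 were tested, and they went in opposite directions. CD68 fell (7.06 ± 1.87 CPM in prefixed, against 20.3 ± 6.89 CPM in unprefixed, log2 fold change -1.50 ± 0.353, adjusted p 0.0493 in edgeR). LYZ was not called (15.9 ± 8.34 CPM in prefixed, against 13.7 ± 6.32 CPM in unprefixed, log2 fold change 0.30 ± 0.346). MRC1 was at 0 everywhere, and the list summed to 18.4 to 36.4 CPM in prefixed and 19.6 to 48.5 CPM in unprefixed libraries. No fibroblast marker was called. FAP, LUM and PDGFRB were at 0, and the 8 summed to 20.7 to 38.1 CPM in prefixed and 40.0 to 64.3 CPM in unprefixed libraries. Most of that sum was 1 gene, COL1A2 (28.5 ± 6.72 CPM in prefixed and 48.3 ± 8.11 CPM in unprefixed). COL1A1 averaged 2.61 CPM in prefixed and 3.79 CPM in unprefixed libraries. No lymphoid, epithelial or megakaryocytic marker was called. HBE1's call was lost without 20-ARSF (log2 fold change 0.73, edgeR adjusted p 0.0654), 21-CTPS2 (0.76, adjusted p 0.11) or 22-LAPTM4B (0.87, adjusted p 0.13). CD68's was lost without any 1 of the 4 prefixed libraries (log2 fold change -1.69 to -1.34, edgeR adjusted p 0.11 to 0.243). The part of these markers in the members' values was not tested. In bulk RNA, fewer cells of a type and less RNA per cell cannot be told apart.

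Genes related to the members were taken by list. The lists were chosen with earlier results of these data known, so their calls are a description. Over all genes tested, 0.235% were called higher in prefixed libraries and 47.8% had a log2 fold change above 0. Of 32 genes for cortical actin and its linkers, 2 were called higher in prefixed libraries and 24 had a log2 fold change above 0 (list median 0.15). The 2 were ACTG1, cytoplasmic gamma actin (1309 ± 281 CPM in prefixed and 967 ± 118 CPM in unprefixed; log2 fold change 0.45 ± 0.0995, adjusted p 0.0317 in edgeR), and FLNA, the actin cross-linker filamin A (696 ± 49.8 CPM in prefixed and 507 ± 81.5 CPM in unprefixed; 0.48 ± 0.112, adjusted p 0.0493). Of 14 tested membrane repair and calcium-dependent membrane binding genes, LGALS1, the lectin galectin-1, rose (639 ± 52.8 CPM in prefixed and 425 ± 98.6 CPM in unprefixed; 0.61 ± 0.141, adjusted p 0.0493). Of 11 tested intermediate filament genes besides VIM, the keratin KRT19 rose (322 ± 21.1 CPM in prefixed and 219 ± 44.7 CPM in unprefixed; 0.58 ± 0.132, adjusted p 0.0382). All 4 calls were lost without 22-LAPTM4B (edgeR adjusted p 0.159 for ACTG1, 0.307 for FLNA, 0.296 for LGALS1 and 0.298 for KRT19), without 21-CTPS2 and without 23-GOLGA8N. Without 20-ARSF, ACTG1 kept its call (adjusted p 0.0266) and the other 3 lost it, and LGALS1 also lost it without GFP (adjusted p 0.0771). In each of these fits the log2 fold change stayed above 0, from 0.32 for ACTG1 without 21-CTPS2 to 0.67 for LGALS1 without 20-ARSF.

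No annexin, S100, transgelin or calponin gene tested was called for the prefix, whether a member or a relative. Over all genes tested, 0.284% were called and 47.8% had a log2 fold change above 0. Of the 6 other annexins tested, 0 were called and 2 had a log2 fold change above 0. ANXA11 averaged 153 ± 34.4 CPM in prefixed and 142 ± 19.4 CPM in unprefixed libraries, ANXA7 54.8 ± 9.36 and 54.7 ± 13.9 CPM, ANXA6 48.0 ± 6.53 and 52.8 ± 11.4 CPM, and ANXA4 5.80 ± 3.16 and 6.84 ± 3.54 CPM, in the same order of groups. Of the 5 other S100 genes tested, 0 were called and 3 had a log2 fold change above 0. S100A13 averaged 129 ± 11.8 CPM in prefixed and 113 ± 16.6 CPM in unprefixed libraries, and S100A1 8.34 ± 4.33 and 18.4 ± 9.43 CPM (log2 fold change -1.11 ± 0.404, adjusted p 0.33 in edgeR). S100A2 averaged 12.9 ± 5.67 CPM in prefixed and 13 ± 9.16 CPM in unprefixed libraries, and S100A16 3.11 ± 2.18 and 6.07 ± 6.11 CPM. Of the 3 tested transgelin and calponin genes besides TAGLN2, 0 were called.

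The arms of replicated labels give the comparison closest to the question in the series title. TAGLN2 was at 2934, 2244 and 2611 CPM in GOLGA8N 1, GOLGA8N 2 and 23-GOLGA8N, against 1884, 1853 and 1993 CPM in Neg, GFP and RFP. All 3 libraries of the GOLGA8N arm lie above all 3 controls. The means were 2596 ± 345 CPM in the GOLGA8N arm and 1910 ± 73.8 CPM in the control arm (SD, n = 3 each), a log2 fold change of 0.59 ± 0.133 (SE). Against all 14 other libraries, the log2 fold change for TAGLN2 was 0.29. The median of those 14 was 2246 CPM, so GOLGA8N 2 lay just below it, while 20-ARSF was at 2524 and E7 at 2451 CPM.

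S100A10 was at 31.7, 29.8 and 47.4 CPM in GOLGA8N 1, GOLGA8N 2 and 23-GOLGA8N, against 14.1, 23.6 and 16.4 CPM in Neg, GFP and RFP, where GFP rests on 13 reads. It had the members' largest log2 fold change in this comparison, 1.21 ± 0.419 (SE), and 1.38 without GFP. AHNAK was at 173, 175 and 269 CPM in the GOLGA8N arm, against 134, 111 and 158 CPM in Neg, GFP and RFP, a log2 fold change of 0.74 ± 0.251 (SE). With the label prefix as a term in the fit, AHNAK's value was 0.47, S100A10's 0.96 and TAGLN2's 0.55. S100A11 was at 337, 280 and 400 CPM in the GOLGA8N arm, against 270, 238 and 275 CPM in Neg, GFP and RFP, a log2 fold change of 0.52 ± 0.189 (SE).

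These 4 members, TAGLN2, S100A10, AHNAK and S100A11, had arms that did not overlap, all higher in the GOLGA8N arm, where 3.79% of 11916 genes tested did so and 11.8% had arms without overlap in either direction. No member was called, and 2 genes (0.0168%) were called in all. In simulated data for this fit, 0 of 50 genes changed 1.5-fold and 4 of 50 changed 2-fold were called. The lack of a call here therefore does not show equal levels. The 6 other members overlapped: ANXA2 averaged 275 ± 52.8 CPM in the GOLGA8N arm and 223 ± 63.0 CPM in the control arm (log2 fold change 0.47 ± 0.206), ANXA1 113 ± 43.4 and 115 ± 21.0 CPM, VIM 635 ± 115 and 663 ± 127 CPM, and ANXA5 31.1 ± 6.72 and 32.9 ± 9.32 CPM, in the same order of arms. The members' median log2 fold change was 0.49, against 0.0079 over all genes tested.

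The scale matters for this comparison. TMM scaling raised the fitted log2 fold changes of 2485 genes averaging at least 50 CPM by a median of 0.15 over the ratio of mean CPM, and by 0.14 for the LAPTM4B arm against the control arm. On the ratio of mean CPM, TAGLN2's log2 ratio was 0.44, S100A10's 1.01, AHNAK's 0.62 and S100A11's 0.38 for the GOLGA8N arm against the control arm. The sign for ANXA1, VIM and ANXA5 turned to -0.02, -0.06 and -0.09. Then 6 of 10 members were above 0, against 9 of 10 in the fit (50.7% of all genes tested). On mean deposited TPM, with a pseudocount of 1, TAGLN2's value was 0.32 and AHNAK's 0.28.

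For the LAPTM4B arm against the control arm, which share the controls of the comparison above, no member's arms were without overlap (10.1% of genes tested in either direction and 3.68% higher), and no gene was called in edgeR (0%; 470 genes at an unadjusted p under 0.05; 1 gene in DESeq2). AHNAK was at 143, 143 and 246 CPM in LAPTM4B 1, LAPTM4B 2 and 22-LAPTM4B, against 134, 111 and 158 CPM in Neg, GFP and RFP, a log2 fold change of 0.53 ± 0.250 (SE). It rests on 22-LAPTM4B: without it the value was 0.19. On deposited TPM the sign turned, at -0.37. TAGLN2 averaged 2191 ± 253 CPM in the LAPTM4B arm and 1910 ± 73.8 CPM in the control arm, and S100A10 20.8 ± 6.26 and 18.0 ± 5.00 CPM. The members' median log2 fold change was 0.30, against 0.022 over all genes tested, and 6 of 10 were above 0, against 51.9% of genes tested.

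In the direct comparison of the arms, S100A10 was higher with GOLGA8N than with LAPTM4B, 31.7, 29.8 and 47.4 CPM, against 17, 17.5 and 28.1 CPM in LAPTM4B 1, LAPTM4B 2 and 22-LAPTM4B. These arms do not overlap, as for 8.35% of genes tested in either direction and 3.93% higher, and the log2 fold change was 0.80 ± 0.398 (SE). TAGLN2's was 0.25 ± 0.132 and AHNAK's 0.22 ± 0.246. All 10 members had a log2 fold change above 0, against 48.4% of genes tested, with a median of 0.21. The sign turned in at least 1 alternative for 5 of them: AHNAK was at -0.02 without 23-GOLGA8N, ANXA1 at -0.12 without LAPTM4B 1, S100A11 at -0.05 without LAPTM4B 2, VIM at -0.02 without GOLGA8N 2, and S100A4 at -0.17 in the libraries titled 1 and 2 with the number as a block. No member was called, and 1 gene (0.00839%) was called in all.

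**Figure D2:**
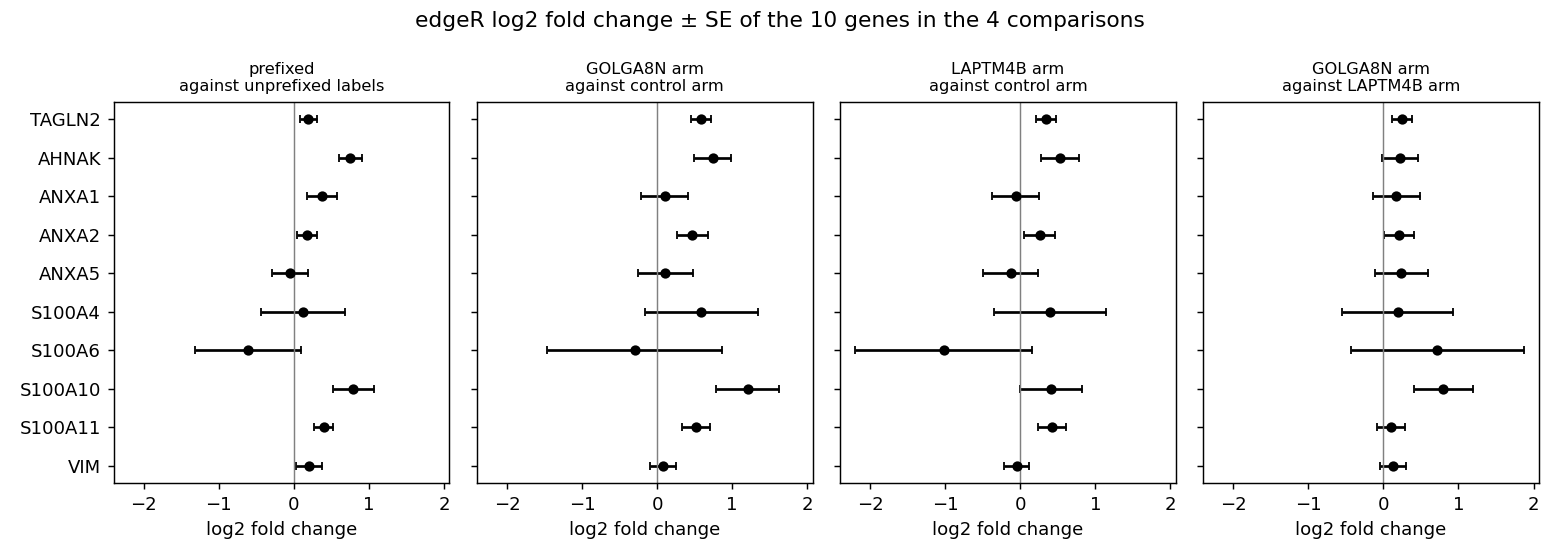
Log2 fold change from edgeR for the 10 genes (points, with SE as bars) in the 4 comparisons, 1 per panel, on a shared axis. AHNAK lies at 0.75 for prefixed against unprefixed labels, S100A10 at 1.21 for the GOLGA8N arm against the control arm, and the bars of S100A4 and S100A6 are wide.

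No gene of the related lists was called in the 3 comparisons of arms, which with so few libraries does not show equal levels. Of the other S100 genes, S100A13 averaged 137 ± 3.36 CPM in the GOLGA8N arm and 98.1 ± 13.3 CPM in the control arm (log2 fold change 0.61 ± 0.214, adjusted p 0.757 in edgeR). S100A16 averaged 14.8 ± 8.05 CPM in the GOLGA8N arm and 3.73 ± 2.22 CPM in the control arm (2.23 ± 0.905, adjusted p 0.823). Of the 6 other annexins tested, 1 had a log2 fold change above 0 for the GOLGA8N arm against the control arm, with a list median of -0.60.

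Across the libraries, the mean standardised level of the 10 members was highest in 23-GOLGA8N (0.77) and 20-ARSF (0.63), then in GOLGA8N 2 (0.50), 21-CTPS2 (0.49) and E7 (0.37), each in SDs of log2(CPM + 1). It was lowest in UBE2V1 (-0.71), ADORA2A (-0.67) and COL6A6 (-0.56). The 10 members together took 4077 to 4382 CPM in prefixed libraries, against 3197 to 4354 CPM in unprefixed libraries, mostly TAGLN2. The members did not move as 1 block: E7 ranked 2 of 17 in VIM and 4 in AHNAK, but 17 in ANXA5.

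**Figure D3:**
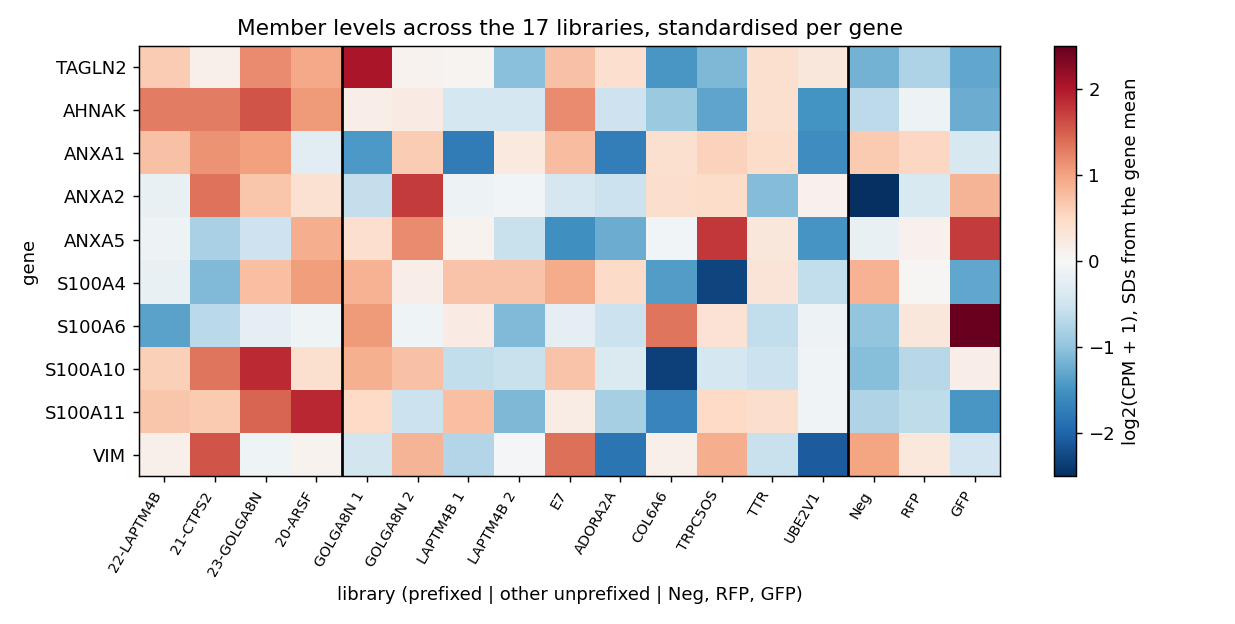
Standardised log2(CPM + 1) of each gene (rows) in each of 17 libraries (columns: 4 prefixed, 10 unprefixed, then Neg, RFP and GFP), with colour giving SDs from the gene's own mean. AHNAK is above its mean in all 4 prefixed libraries and in E7, TTR, GOLGA8N 1 and GOLGA8N 2, and S100A6 is highest in GFP.

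ANXA1 had 4 libraries set apart at its low end, a pattern that VIM shared in part. ANXA1 was at 57.8 CPM in LAPTM4B 1, 58.1 CPM in ADORA2A, 61.8 CPM in UBE2V1 and 64.2 CPM in GOLGA8N 1. The next library above these 4, GFP, was at 90.9 CPM. These 4 libraries carry 4 different labels. In VIM the same 4 were the third, second, first and sixth lowest, with 505, 378, 354 and 545 CPM. The 4 were picked after their values were seen, so this is a description and no comparison of groups.

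**Figure D4:**
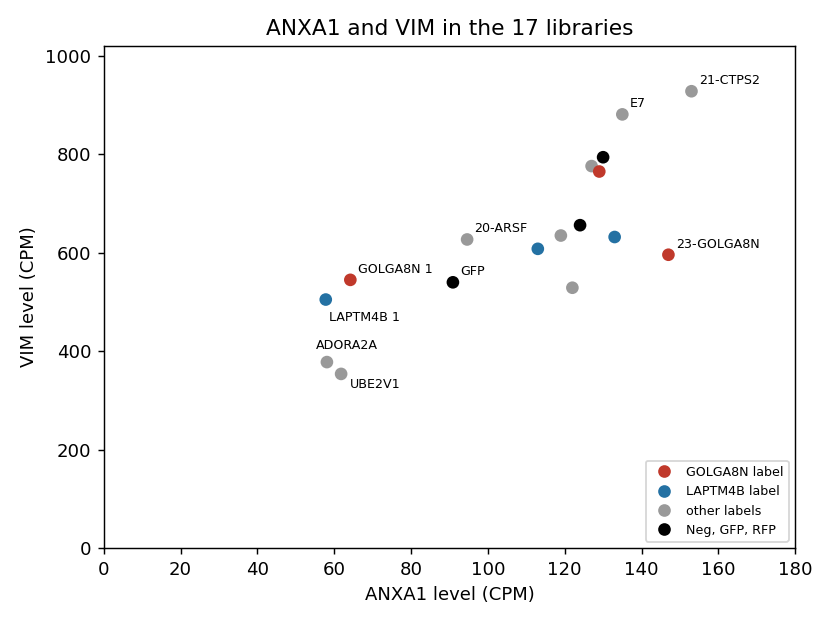
VIM level against ANXA1 level, both in CPM, in the 17 libraries, coloured by label. LAPTM4B 1, ADORA2A, UBE2V1 and GOLGA8N 1 lie at 57.8 to 64.2 CPM of ANXA1, and 21-CTPS2 is highest in both genes, at 153 CPM of ANXA1 and 928 CPM of VIM.

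Pairs of proteins known to bind each other were compared by the correlation of log2(CPM + 1) over the 17 libraries, in 5 pairs. For AHNAK and S100A10, Pearson's r was 0.68 and Spearman's rho was 0.63. Both genes were chosen with their prefix pattern known, so these values are a description and no p is given. Without 21-CTPS2 and 23-GOLGA8N, the libraries farthest from the median of AHNAK, r was 0.53. Within the 13 unprefixed libraries r was 0.43 and rho 0.27, and the 4 prefixed libraries are too few to give a value.

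**Figure D5:**
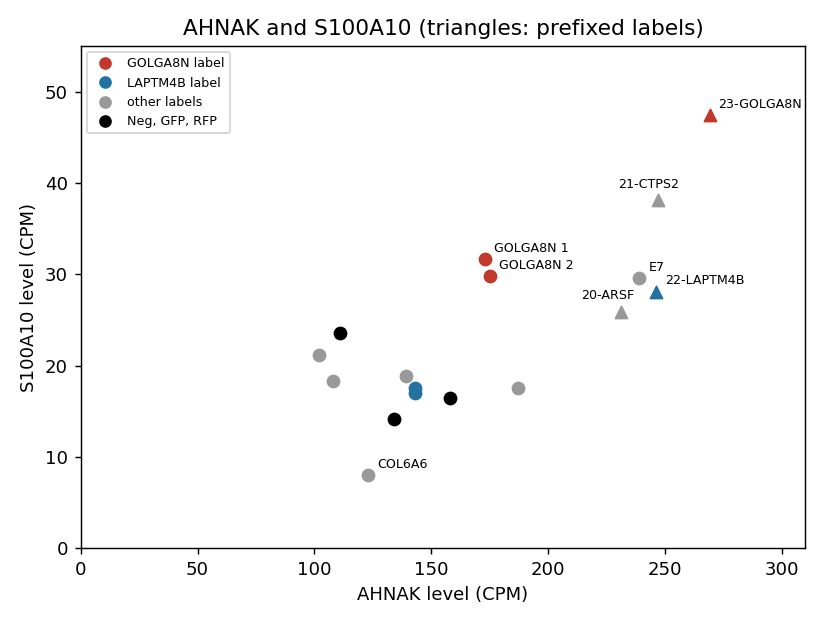
S100A10 level against AHNAK level, both in CPM, in the 17 libraries, with triangles for the 4 prefixed libraries and colours for the label. The prefixed libraries lie at 231 to 269 CPM of AHNAK with E7 beside them, and r over all 17 is 0.68 against 0.43 in the 13 unprefixed libraries.

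For ANXA2 and S100A10, whose proteins form the annexin A2 heterotetramer, r was 0.40 and rho 0.38. Per 100 ANXA2 reads there were 9.93 to 17.3 S100A10 reads in prefixed libraries, against 3.05 to 14.3 in unprefixed libraries. For ANXA1 and S100A11 r was 0.05, for AHNAK and ANXA2 0.14, and for ANXA11 and S100A6 0.22, with rho of 0.21, 0.04 and -0.03.

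Among 2485 genes averaging at least 50 CPM, those whose log2(CPM + 1) correlated best over the 17 libraries with the members' mean standardised level were TUBA1A (r = 0.83), ATP6V1G1 (0.81), KRT8 (0.81), SLC25A37 (0.80) and CD24 (0.79). With TAGLN2 alone they were SRRM2 (0.86), RPL10P3 (0.83) and TMED9 (0.83). These are the highest of 2485 values over libraries that share a prefix class, and no p is given.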

How the data were processed

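Each library's deposited table lists 228297 transcripts with estimated counts and TPM, both deposited by the authors in Salmon's columns, per the file headers. Salmon 0.7.2, STAR (listed under the same version), UMI-tools, featureCounts and GRCh38 are named in the submitters' processing notes. Collapsing of reads by their 12 bp molecular identifiers: not given in the sources used here. Per gene of GENCODE 29, the deposited estimated counts were summed (205336 transcripts matched; the unmatched held 3.32% to 3.6% of reads and stayed out of library sizes) and rounded to whole numbers for tests. CPM were computed from the unrounded sums. Deposited TPM served only for order between genes and as an alternative. Where a count is near the floor of 3 reads, intervals would cover counting error only.

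The test was that of edgeR 4.0.16, run in R 4.3.3 (scaling by TMM, filterByExpr, robust quasi-likelihood fit and test, Benjamini-Hochberg over all genes tested, threshold 0.05), in 17 libraries for the prefix and in 9 libraries of 3 arms in 1 fit. The SE is the size of a log2 fold change over the square root of F. Scripts were tested on simulated data. Correlations are given as a description, without the permutation test planned for them, since the members were chosen by the same values. Alternatives were DESeq2 1.42.0, RLE size factors, no filter, other sets of libraries, prefix as a term and libraries left out 1 at a time. For the prefix, the libraries left out were the 4 prefixed ones, GFP and E7, and for the arms each of the 9. Adding pseudogene reads was also listed as an alternative, but those pseudogenes had 0 reads, so it could not change a value.

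The members and gene lists were chosen with earlier results of these data known. Named genes are all members, their annotated copies, list genes under the threshold (up to 4 per list), other annexins and S100 genes averaging at least 5 CPM, and the 5 and 3 genes most correlated with the members and with TAGLN2. The numbers 1 and 2 of GOLGA8N and LAPTM4B are not known to pair libraries. ANXA1's 4 lowest libraries and the fit without E7 were chosen after values were seen.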

Additional observations from a re-analysis of the deposited data

Results flagged for a closer look

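VIM was at 928 CPM in 21-CTPS2, against 596 to 632 CPM in the other prefixed libraries, 23-GOLGA8N, 20-ARSF and 22-LAPTM4B. Its gap to the nearest of the others is 0.891 of the group's range, above Dixon's 95% critical value for 4 samples. The 10 members were each checked in this group, and chance flags about 1 in 20. ANXA1 was also highest in 21-CTPS2, at 153 CPM, while ANXA5 there was at 22.5 CPM, the lowest of the 4 prefixed libraries.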

How the results depend on the processing

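The number of genes called depends on the fit, and the cause was not tested. For prefixed against unprefixed labels, 35 genes were called. DESeq2 called 137, no filter 557, only unprefixed labels that name a human gene 137, and only GOLGA8N and LAPTM4B libraries 73. Leaving out 1 of the 4 prefixed libraries, GFP or E7 gave 2 to 102 (2 without 22-LAPTM4B, 7 without 23-GOLGA8N, 11 without 21-CTPS2, 102 without E7). The other unprefixed libraries were not left out here. For the GOLGA8N arm against the control arm, 2 were called; DESeq2 called 14, RLE size factors 1, no filter 42, prefix as a term 6, all 14 other libraries as reference 4, and leaving out 1 library 1 to 6. For the LAPTM4B arm against the control arm, 0 were called; DESeq2 called 1, no filter 25, and leaving out 1 library 0 to 1. For the GOLGA8N arm against the LAPTM4B arm, 1 was called; DESeq2 called 2, no filter 9, and leaving out 1 library 1 to 3. On the 4 libraries titled 1 and 2, the replicate block gave 2 and the fit without the block 2; same-numbered libraries deviated together with r = 0.141 across 10879 genes, and both values come from the same 2 by 2 layout, so a pairing is not established.

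AHNAK's prefix call held in 8 of 11 alternatives. TAGLN2 was called in the GOLGA8N arm against the control arm in 1 of 15, with no filter (adjusted p 0.00927 in edgeR). Of these 15, 1 (pseudogene reads added) repeats the main value, since the pseudogene had 0 reads. Of 40 member values, 17 changed sign in at least 1 alternative fit and 23 in none. Mean deposited TPM is not in this count. On TPM, AHNAK for the LAPTM4B arm against the control arm, 1 of the 23, turned to -0.37. S100A6 turned to 0.55 without GFP for the GOLGA8N arm against the control arm. Within the 13 unprefixed libraries, r was 0.43 for AHNAK and S100A10, -0.24 for ANXA1 and S100A11 and -0.17 for AHNAK and ANXA2. In the same 13 it was 0.24 for ANXA2 and S100A10 and 0.45 for ANXA11 and S100A6. Without GFP, r for ANXA11 and S100A6 was -0.24. Depth limits S100A4, S100A6 and every value from GFP.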
